A study of Arabidopsis thaliana with 12 samples.

Results

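The comparison set 4 libraries of the Arabidopsis thaliana line amiR-SYD-1 against 4 libraries of amiR-SYD-2, with treatment as a blocking factor. A single difference between the lines was thus fitted to both treatments, and the treatment with more counts of a gene weighs more in it. For a gene near 0 counts on ABA (abscisic acid), the difference over both treatments is close to that without ABA. These 8 libraries were chosen by their labels out of 12 in the series. Both lines, called SYD1 and SYD2 here, carry an artificial microRNA against SPLAYED (SYD). The other 4 libraries came from amiR-HsMYO (HsMYO), labelled as the wild-type control, and served only as a reference level. Every library was made from germinating seeds that had 3 days of dark and cold (4 °C) and then 24 h, with 16 h of light and 8 h of dark, on 2 µM (±)-abscisic acid (ABA) or on 0.002% ethanol, the condition called without ABA here. Each line and treatment had 2 biological replicates, as the labels call them. The promoter that drives the microRNAs, their target sites in SYD and the number of insertions in each line are among the details not given in the sources used here, so each line stands for itself only.

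SYD is an ATPase of the SWI/SNF family, whose members use ATP to shift or evict nucleosomes and so change the access of transcription factors to DNA. In plants it is known for roles in meristems, flower development and stress-hormone signalling. An artificial microRNA lowers its target by guiding cleavage or translational repression of the transcript. Lines carrying one can differ in how far the target falls and in anything else that distinguishes the transformed plants. Germinating seeds use up stored protein and oil while the embryo turns green and the root emerges, and ABA holds back that passage. Genes of late seed maturation, of reserve use, of photosynthesis and of root hairs therefore mark how far seedlings have moved along it.

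Total counts ran from 18713555 to 27606120 in the 8 SYD line libraries, and 3 counts corresponded to 0.101 to 0.162 CPM (counts scaled to library size) over all 12. Replicates of each group differed by more than counting error, with a chi-square per degree of freedom of 2.40 to 13.3, highest in HsMYO on ABA and next in SYD2 without ABA (9.03). Markers of the labelled tissue were abundant. The endosperm gene EPR1 stood at 2178 to 3632 CPM and PCK1, the phosphoenolpyruvate carboxykinase that turns oil into sugar, at 4780 to 7347 CPM as group means. Endosperm, embryo and seed coat were sequenced together, so a lower level can mean fewer cells of a type or less RNA per cell, and the 2 cannot be told apart.

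The microRNA target itself was not called between the lines. SYD (AT2G28290) stood at 101 and 108 CPM in replicates 1 and 2 of SYD1 without ABA and at 98.6 and 108 CPM in SYD2. With ABA the values were 145 and 153 CPM in SYD1 and 126 and 147 CPM in SYD2, against 178 to 230 CPM over the 4 HsMYO libraries. The groups overlapped within each treatment, and SYD1 exceeded SYD2 by 0.07 ± 0.06 on the log2 scale (SE of the fit, adjusted p = 0.567). Against HsMYO, SYD transcript was lower by 0.66 in SYD1 (log2 -0.66, adjusted p = 1.18e-06) and by 0.73 in SYD2 (log2 -0.73, adjusted p = 4.12e-07). None of the 17 tested SWI/SNF genes, SYD among them, was called between the lines. Their differences ran from -0.15 for AT3G01890 to 0.12 for AT1G20670, with a median of 0.01, where 3.18% of all genes tested were called. CHR23, which encodes a further family ATPase, was at 26.0 and 25.3 CPM in SYD1 and 26.1 and 27.0 CPM in SYD2 without ABA. On ABA it was at 24.2 and 23.9 CPM against 29.3 and 26.8 CPM, so the lines did not overlap in either treatment (log2 -0.14, adjusted p = 0.208). Both lines were below HsMYO (log2 -0.57 in SYD1 and -0.44 in SYD2, adjusted p = 2.85e-06 and 3.71e-05). BRM, for the ATPase most like SYD, was at 161 CPM in SYD1 and 167 CPM in SYD2 without ABA (group means).

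Beside this, 602 of 18959 tested genes, or 3.18%, differed between the lines at an adjusted p under 0.05 (edgeR quasi-likelihood test, Benjamini-Hochberg). Of these, 322 (1.7% of all tested) were higher in SYD1 and 280 (1.48%) were higher in SYD2. Most differences were small. The median size among the called genes was 0.41 on the log2 scale, and 102 genes passed 2-fold. In 2729 genes (14.4%) the 2 lines did not overlap in either treatment and the same line was the higher in both. Replicate 1 of SYD1 without ABA bore most on the count, since 278 genes were called without it. 351 and 359 were called without replicates 1 and 2 of SYD1 on ABA. 211 of the 602 genes (35%) were called whichever single library was left out, 118 higher in SYD1 and 93 higher in SYD2. Genes named below as called over both treatments belong to these 211 unless a library on which the call rested is given. The 95 named genes include 17 SWI/SNF genes that had no call to lose. Among the rest, DESeq2 ended the calls of 16 and the 12-library fit with 1 mean per group those of 28.

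The difference between the lines was largely shared by the treatments, whose libraries are separate. Within a single treatment, 135 genes (0.688% of 19612 tested) were called without ABA and 166 (0.846%) on ABA. 45 genes were called in both, all in the same direction, which is 33.3% of the first list and 27.1% of the second. Of the 135 genes, 118 (87.4%) had the same sign on ABA, and of the 166 genes, 160 (96.4%) had the same sign without ABA, beside 60.7% of all genes tested. The single-treatment counts rested on few libraries. Without ABA, 13 genes were called when replicate 1 of SYD1 was left out, 57 without its replicate 2 and 42 without replicate 2 of SYD2. On ABA, 53 and 51 were called without replicates 1 and 2 of SYD1, and 99 and 36 without those of SYD2.

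**Figure D1:**
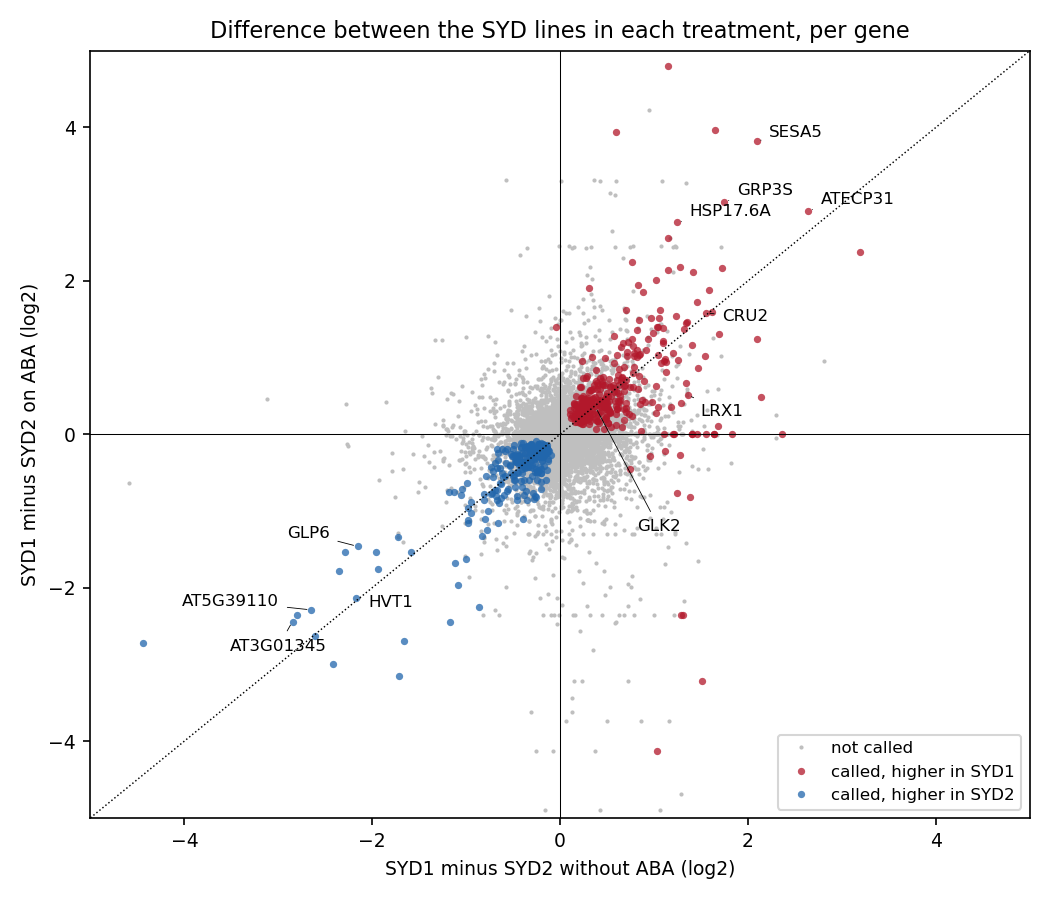
Difference between SYD1 and SYD2 for each tested gene, without ABA on the horizontal axis and on ABA on the vertical axis, both in log2. Red points are the genes called over both treatments as higher in SYD1 and blue points those higher in SYD2; grey points were not called, and the dotted line marks equal differences. Most called genes lie along that line, with a row of red points near 0 on ABA. They were called for a difference common to both treatments, which favours that line, so their place on it is no separate test. Beyond the axes lie 6 genes, 2 of them called.

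The level in HsMYO places the differences. The comparisons of the lines with HsMYO share the same 4 control libraries and called 7689 genes for SYD1 (39.2%) and 7480 for SYD2 (38.1%). Among the 602 genes that differed between the lines, 150 (24.9%) were called against HsMYO in SYD1 alone and 105 in SYD2 alone. These split into 99 and 47 among the genes higher in SYD1 and 51 and 58 among those higher in SYD2. Both lines departed the same way in 279 (46.3%), and there SYD1 lay further from HsMYO in 184 and SYD2 in 95. In 9 genes the lines departed in opposite directions, and 59 were called against HsMYO in neither line. These contrasts average both treatments and can miss genes near 0 counts on ABA. EXPA7 was called in neither line, with 7.80 and 5.13 CPM in SYD1 and 0.53 and 0.51 CPM in HsMYO without ABA. PRP3 and LRX1 counted under SYD1 alone. Their SYD2 means without ABA were 13.6 and 9.25 CPM, against 1.06 and 2.54 CPM in HsMYO. Among the 322 genes higher in SYD1, HsMYO lay nearer to SYD2 in 233 (72.4%). Among the 280 higher in SYD2, it lay nearer to SYD2 in 144 (51.4%) and to SYD1 in 136. These are counts of calls and of mean levels, and being called in a single line is not a test of a difference from the other.

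The smallest p-value belonged to AT2G13175, a pseudogene annotated as an uncharacterized protein (TAIR10.1 chromosome 2, 5453856 to 5456495). It was detected in SYD2 and almost nowhere else. Replicates 1 and 2 of SYD2 held 21.2 and 22.6 CPM without ABA and 25.0 and 26.9 CPM on ABA. SYD1 held 1 count in all 4 libraries together against 2213 in SYD2, a ratio of 1880 with an exact 95% interval of 337 to 74300 that covers counting error only. On ABA, SYD1 had 0 counts and SYD2 1155, so SYD2 was at least 357-fold higher, taking 3 counts over the SYD1 group as the floor. HsMYO held at most 0.04 CPM in any library. The difference was called in each treatment and whichever library was left out (adjusted p = 1.39e-12). None of the 6 nearest tested genes, 3 on each side, was called, and their differences ran from -0.03 to 0.28 in log2. The 250 bases upstream of its annotated start, chr2:5456496-5456745 (minus strand) in RefSeq TAIR10.1, are shown because the transcript was close to 0 outside SYD2, and they open with a run of alternating t and c.
AT2G13175: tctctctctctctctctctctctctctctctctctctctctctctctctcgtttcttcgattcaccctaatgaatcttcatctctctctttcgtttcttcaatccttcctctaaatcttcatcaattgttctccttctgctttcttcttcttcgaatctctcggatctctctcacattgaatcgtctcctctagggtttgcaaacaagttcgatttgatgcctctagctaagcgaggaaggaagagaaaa

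HVT1 (AT2G30800, chromosome 2, 13120292 to 13126813), annotated as a helicase in vascular tissue and tapetum, was low in SYD1 alone. In SYD1 it stood at 8.61 and 10.096 CPM without ABA and at 12.9 and 13.9 on ABA. In SYD2 it stood at 42.8 and 41.7 CPM and at 58.3 and 59.9 CPM, and in HsMYO at 46.3 and 44.3 CPM and at 58.7 and 67.4 CPM. All 4 SYD1 libraries lay below every other library. SYD1 was lower than SYD2 by 2.16 on the log2 scale (log2 -2.16 ± 0.06, adjusted p = 9.83e-12). It was also lower than HsMYO (log2 -2.25, adjusted p = 2.91e-12), whereas SYD2 was not called against HsMYO (log2 -0.10, adjusted p = 0.184). Again none of the 6 nearest tested genes was called, with differences of -0.29 to 0.68.

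AT3G01345, an expressed protein annotated with hydrolase activity on O-glycosyl bonds, was high in SYD2. It stood at 14.2 and 21.4 CPM in SYD2 without ABA and at 14.6 and 19 CPM on ABA, against 2.11 to 3.82 CPM over the 4 SYD1 libraries and 1.1 to 4.51 CPM over the 4 HsMYO libraries. The SYD2 libraries did not overlap with any other (log2 -2.64 ± 0.18, adjusted p = 2.47e-06). None of its 6 nearest tested genes was called.

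A pair of neighbouring germin-like genes on chromosome 5 was low in SYD1. Germin-like proteins are cupin-fold proteins of the cell wall. AT5G39110 (15657697 to 15658632) stood at 1.3 and 1.27 CPM in SYD1 without ABA and at 1.13 and 0.83 on ABA, against 8.70 and 7.55 CPM and 4.41 and 5.11 CPM in SYD2 (log2 -2.49 ± 0.15, adjusted p = 6.99e-07). GLP6 (AT5G39100, 15653125 to 15654028) stood at 0.76 and 1.32 CPM and at 1.38 and 1.06 CPM in SYD1, against 4.40 and 4.89 CPM and 2.87 and 3.84 CPM in SYD2 (log2 -1.81 ± 0.20, adjusted p = 2.28e-04). HsMYO held 3.40 to 5.20 CPM of the first gene and 5.14 to 6.84 CPM of the second. Both were thus low in SYD1 against either line. Germin-like genes are near copies of one another, and how reads that fit several places were counted is not given in the sources used here.

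**Figure D2:**
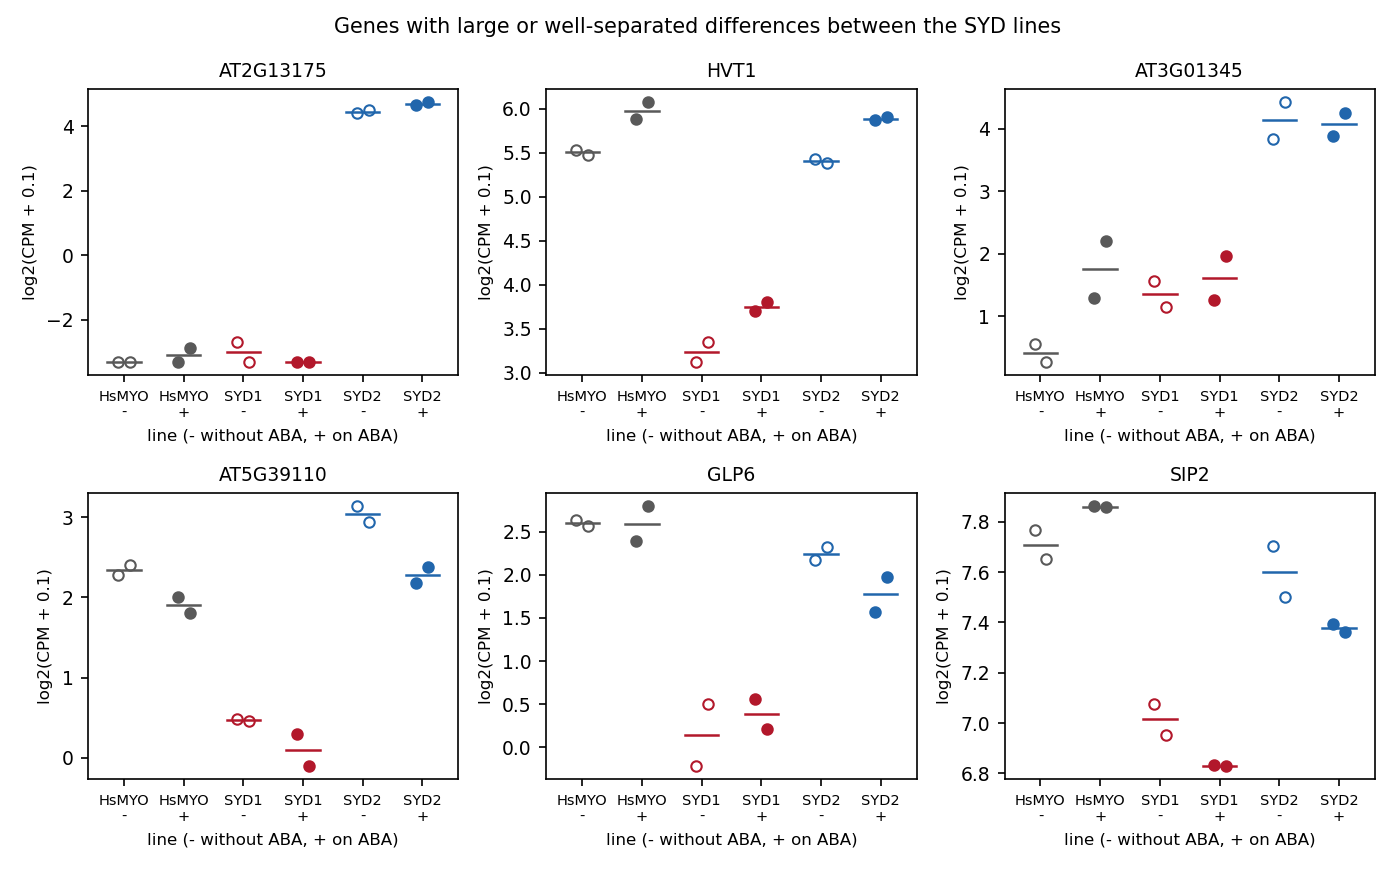
Level of 6 genes in every library, as log2 of CPM plus 0.1, for each line without ABA (open circles) and on ABA (filled circles); bars are means of 2 replicates. AT2G13175 and AT3G01345 are high in SYD2 alone, whereas HVT1, AT5G39110, GLP6 and SIP2 are lowest in SYD1.

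Further genes were lower in SYD1 with SYD2 between it and HsMYO. AT5G33395, a pseudogene, had group means of 2.19 CPM in SYD1, 8.43 in SYD2 and 12.1 in HsMYO without ABA, and 3.05, 8.88 and 23.8 CPM on ABA (log2 between the lines -1.73 ± 0.15, adjusted p = 3.68e-05). NAC044, a transcription factor of the DNA-damage response, stood at 1.39, 4.15 and 9.21 CPM without ABA in the same order (log2 -1.56 ± 0.21, adjusted p = 9.18e-04). Its relative NAC103 stood at 2.3, 4.50 and 11.7 CPM (log2 -1.07 ± 0.15, adjusted p = 9.66e-04). AATP1, an AAA-type ATPase, stood at 1.93, 3.33 and 10.3 CPM (log2 -1.06 ± 0.14, adjusted p = 1.01e-03). In each of these 4 genes both lines were called below HsMYO and SYD1 lay further from it. SIP2, the alpha-galactosidase SEED IMBIBITION 2, which acts on the raffinose stored in seeds, was at 135 and 124 CPM in SYD1 and 208 and 181 CPM in SYD2 without ABA. On ABA it was at 114 and 114 CPM in SYD1 and 168 and 165 CPM in SYD2, with HsMYO between 201 and 233 CPM (log2 -0.57 ± 0.05, adjusted p = 2.13e-05). For PMZ, a zinc finger gene, and AT1G02620, for a Ras-related small GTPase, SYD1 was lower by 1.03 (log2 -1.03, adjusted p = 5.77e-04) and 0.98 (log2 -0.98, adjusted p = 6.60e-05). SYD2 was called below HsMYO for AT1G02620 (log2 -0.54, adjusted p = 3.83e-04) but not for PMZ (log2 -0.12, adjusted p = 0.501). AT1G13609, for a defensin-like peptide, did not follow the order of SYD1 lowest, SYD2 next and HsMYO highest. It rose in SYD2 alone against HsMYO (log2 1.02, adjusted p = 1.04e-03), with SYD1 at -0.03 (adjusted p = 0.93), and was -1.06 ± 0.19 between the lines.

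Part of the seed storage protein genes were higher in SYD1, 4 of 13 tested on the list, while 1 was lower. The 2S albumin gene SESA5 stood at 33.3 and 18.5 CPM in SYD1 without ABA and at 105 and 93.5 CPM on ABA. In SYD2 it stood at 3.95 and 7.73 CPM and at 8.91 and 5.07 CPM, and HsMYO ranged from 1.89 to 17.57 CPM. SYD1 and SYD2 did not overlap in either treatment (log2 3.09 ± 0.29, adjusted p = 5.08e-05). SYD1 was also above HsMYO (log2 2.35, adjusted p = 6.14e-05), and SYD2 was not called against it (log2 -0.60, adjusted p = 0.269). The 12S globulin gene CRU2 followed the same order, at 33.3 and 7.45 CPM in SYD1 and 4.50 and 8.96 CPM in SYD2 without ABA, where the lines overlapped. On ABA they did not overlap, at 27.0 and 25.2 CPM against 8.96 and 8.45 CPM (log2 over both treatments 1.56 ± 0.31, adjusted p = 0.0128). SESA3 stood at 222 and 74.9 CPM against 44.9 and 80.5 CPM without ABA and at 266 and 269 CPM against 102 and 81.5 CPM on ABA (log2 1.39 ± 0.24, adjusted p = 5.75e-03). For CRU3, another globulin gene, the group means were 82.4 and 39.6 CPM without ABA and 225 and 110 CPM on ABA in SYD1 and SYD2 (log2 1.03 ± 0.22, adjusted p = 0.0220). Its call was lost without any of 4 libraries, namely both SYD1 libraries on ABA, replicate 1 of SYD1 without ABA and replicate 2 of SYD2 on ABA, with log2 values of 0.73 to 1.24 over the single-library omissions.

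SESA1, a neighbour and near copy of SESA3, went the other way. It stood at 6.72 and 3.28 CPM in SYD1 and 8.05 and 14.1 CPM in SYD2 without ABA, and at 7.72 and 13.4 CPM against 20.1 and 15.6 CPM on ABA (log2 -0.93 ± 0.21, adjusted p = 0.0284). Its call was lost without replicate 1 of SYD1 on ABA, either SYD1 library without ABA or replicate 1 of SYD2 on ABA, with log2 values of -1.20 to -0.73. Counts of the SESA genes can be split or exchanged among copies, and the rule used is not given in the sources used here. In all, 4 of 13 tested seed storage and oil body genes were higher in SYD1 and 1 was higher in SYD2, or 38.5% beside 3.18% of all genes, with a median difference of 0.33. The lists were chosen with earlier results of these data known, so such shares, here and below, are descriptions and not tests. Without ABA all the called genes of this list were higher in replicate 1 than 2 of SYD1 and lower in replicate 1 than 2 of SYD2. The 13 genes are thus not 13 separate observations. The summed level of the list was 1715 to 1997 CPM in SYD1 and 1182 to 1619 CPM in SYD2 on ABA, and 259 to 622 CPM and 237 to 372 CPM without ABA, where the lines overlapped. On ABA the summed level of 3 endosperm markers also separated the lines, at 3623 to 3937 CPM in SYD1 and 4708 to 4941 CPM in SYD2. Among these EPR1 was at 2752 and 2494 CPM against 3715 and 3549 CPM (log2 on ABA -0.47, adjusted p = 0.529). Their part in the seed gene differences was not tested. DESeq2 did not call CRU2, CRU3 or SESA1 (adjusted p = 0.0550, 0.131 and 0.138), and the 12-library fit did not call CRU3 (adjusted p = 0.164). CRA1, the most abundant globulin gene of the list, did not pass the test (log2 0.06 ± 0.17, adjusted p = 0.907). The oleosin genes OLEO1, OLEO2 and OLEO3 were at 0.33, 0.21 and 0.04, none called. OLEO4 (log2 1.96, adjusted p = 0.0618) missed the threshold over both treatments and was called on ABA (log2 3.14, adjusted p = 0.0371), as was ATS1 (AT4G26740), for the oil body protein caleosin (log2 1.03, adjusted p = 0.0147).

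Upstream sequences of the albumin genes, CRU3 and M10 are shown because 2 short motifs known from seed promoters lie in them. The RY core (CATGCA) is bound by B3-domain factors such as ABI3 and FUS3, and the ABRE core (ACGTG) by bZIP factors such as ABI5. Both were searched on both strands, overlapping matches included, and are in capitals below, so that CACGTG counts as an ABRE core match on each strand. The sequences are the 250 bases upstream of the annotated start, 5′ to 3′ on the gene's strand, from RefSeq TAIR10.1. They lie at chr5:22239188-22239437 (minus strand), chr4:13611546-13611795 (plus strand), chr4:13607079-13607328 (plus strand), chr4:14087306-14087555 (plus strand) and chr2:17209447-17209696 (plus strand).
SESA5: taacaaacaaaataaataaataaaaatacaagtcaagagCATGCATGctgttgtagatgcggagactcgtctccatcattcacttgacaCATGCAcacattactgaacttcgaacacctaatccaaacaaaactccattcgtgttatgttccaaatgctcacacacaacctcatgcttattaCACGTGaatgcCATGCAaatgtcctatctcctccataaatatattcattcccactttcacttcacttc
SESA3: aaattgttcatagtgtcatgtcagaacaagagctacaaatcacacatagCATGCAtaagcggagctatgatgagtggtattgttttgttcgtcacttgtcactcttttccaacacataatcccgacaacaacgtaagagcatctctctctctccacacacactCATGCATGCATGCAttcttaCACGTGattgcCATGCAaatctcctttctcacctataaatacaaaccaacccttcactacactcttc
SESA1: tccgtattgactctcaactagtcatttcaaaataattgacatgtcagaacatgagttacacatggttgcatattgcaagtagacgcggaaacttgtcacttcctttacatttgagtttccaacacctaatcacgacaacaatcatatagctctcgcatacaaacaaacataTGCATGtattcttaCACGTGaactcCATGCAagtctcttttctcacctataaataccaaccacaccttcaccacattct
CRU3: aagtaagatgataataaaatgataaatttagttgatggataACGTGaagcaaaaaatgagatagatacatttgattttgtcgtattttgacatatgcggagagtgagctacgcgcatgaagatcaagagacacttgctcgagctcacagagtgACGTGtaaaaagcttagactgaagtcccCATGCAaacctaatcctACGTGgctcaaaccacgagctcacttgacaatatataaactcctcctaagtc
M10: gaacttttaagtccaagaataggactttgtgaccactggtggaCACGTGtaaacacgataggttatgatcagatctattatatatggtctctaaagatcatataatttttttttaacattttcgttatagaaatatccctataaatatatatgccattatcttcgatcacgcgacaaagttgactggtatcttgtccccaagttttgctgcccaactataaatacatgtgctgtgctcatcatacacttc

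SESA5 and SESA3, higher in SYD1, hold 4 and 7 RY matches and 2 ABRE core matches each. SESA1, higher in SYD2, holds 2 of each, so the letters do not separate the albumin genes by direction. M10 holds the ABRE core only. Among the 6 called genes of the seed storage, oil body and LEA lists, 66.7% of the windows held the RY core and 83.3% the ABRE core. Among all 23 tested genes of these lists the shares were 65.2% and 82.6%, so the motifs did not set the called members apart. Among the 322 genes higher in SYD1, 13.7% of the windows held the RY core, 39.8% the ABRE core and 6.52% both. Among 279 windows of genes higher in SYD2 the shares were 11.5%, 27.6% and 3.23%, beside 7.48%, 23.8% and 2.12% of 18903 windows of tested genes. These shares are a description of the letters and were not tested.

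M17, M10, PAP85 and ATECP31, further genes of the late seed, were each called as higher in SYD1. M17, a glycine-rich late embryogenesis abundant (LEA) protein, stood at 29.2 and 16.4 CPM in SYD1 and 9.09 and 8.06 CPM in SYD2 without ABA, and at 109 and 122 CPM against 33.7 and 19.7 CPM on ABA (log2 1.86 ± 0.18, adjusted p = 6.82e-05). M10, its neighbour on chromosome 2 and also a LEA gene, stood at 6.72 and 4.76 CPM against 2.82 and 2.77 CPM without ABA, and at 22.7 and 17.2 CPM against 7.77 and 7.31 CPM on ABA (log2 1.27 ± 0.13, adjusted p = 8.63e-05). Neither gene overlapped between the lines in either treatment. PAP85, a vicilin-like cupin of the seed, was at 90.2 and 79.5 CPM in SYD1, 28.7 and 22.8 CPM in SYD2 and 39.6 and 28.0 CPM in HsMYO on ABA (log2 between the lines 1.65 ± 0.17, adjusted p = 9.08e-05). ATECP31, a seed maturation protein, was at 7.82 and 6.16 CPM in SYD1, 1.24 and 0.59 CPM in SYD2 and 2.79 and 2.85 CPM in HsMYO on ABA (log2 2.84 ± 0.29, adjusted p = 9.08e-05). For these last 2 genes HsMYO lay between the lines on ABA.

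The LEA list itself did not move as a whole. 1 of its 10 tested members was called, M10, and the median difference was -0.01. The abundant ABA-induced members LEA7, LEA4-5, EM1 and EM6 were at -0.04, -0.20, 0.03 and 0.02, none called. The summed level of the list on ABA was 5513 to 5878 CPM in SYD1 and 5333 to 5876 CPM in SYD2, so the lines overlapped. AGL67, a MADS-box gene known for a role in seed germination control, was at 15.8 and 17.02 CPM in SYD1 and 10.13 and 10.3 CPM in SYD2 without ABA, and at 76.5 and 78.0 CPM against 53.0 and 51.4 CPM on ABA (log2 0.60 ± 0.05, adjusted p = 2.13e-05). AT3G21380, for a mannose-binding lectin, stood at 7.57 and 28.6 CPM in SYD1, 1.15 and 1.23 CPM in SYD2 and 12.2 and 11.9 CPM in HsMYO on ABA, so HsMYO lay between the SYD1 replicates. Over both treatments the lines differed by 3.24 ± 0.56 (adjusted p = 5.18e-03), with 3.94 on ABA (adjusted p = 1.79e-03) and 0.60 without ABA (adjusted p = 0.909), and SYD2 was the line called against HsMYO (log2 -2.79, adjusted p = 1.56e-04). Its call between the lines was lost without replicate 1 of SYD2 on ABA (adjusted p = 0.0591), with 1 mean per group in 12 libraries (adjusted p = 0.0648) and with DESeq2 (adjusted p = 0.104).

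The small heat shock gene HSP17.6A, whose protein keeps unfolding proteins soluble, stood at 9.26 and 4.60 CPM in SYD1 and 1.15 and 0.87 CPM in SYD2 on ABA, and at 1.90 and 1.37 CPM against 0.59 and 0.76 CPM without ABA (log2 2.22 ± 0.32, adjusted p = 1.56e-03). Its neighbour HSP17.6II was lower in level, at a mean of 1.09 CPM in SYD1 and 0.18 CPM in SYD2 on ABA (log2 2.00 ± 0.44, adjusted p = 0.0231). The call of HSP17.6II was lost without any of the 4 libraries on ABA or without replicate 1 of SYD1 without ABA, at 1.71 to 2.27. These were the 2 of 8 tested heat shock genes called over both treatments (25% beside 3.18% of all genes). HSP101 was at 0.93 (adjusted p = 0.0551), and HSP70-4, HSP90.1 and HSFA2 were at 0.02, 0.05 and -0.17. On ABA all 8 were above 0, with a median of 0.58 and a lowest value of 0.14, beside 49.7% of all genes above 0. HSP101, for a chaperone that takes protein aggregates apart, was the third gene called there (log2 1.58, adjusted p = 4.66e-03), where 0.846% of all genes were called. Without ABA 4 were above 0 and 4 below, with none called.

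**Figure D3:**
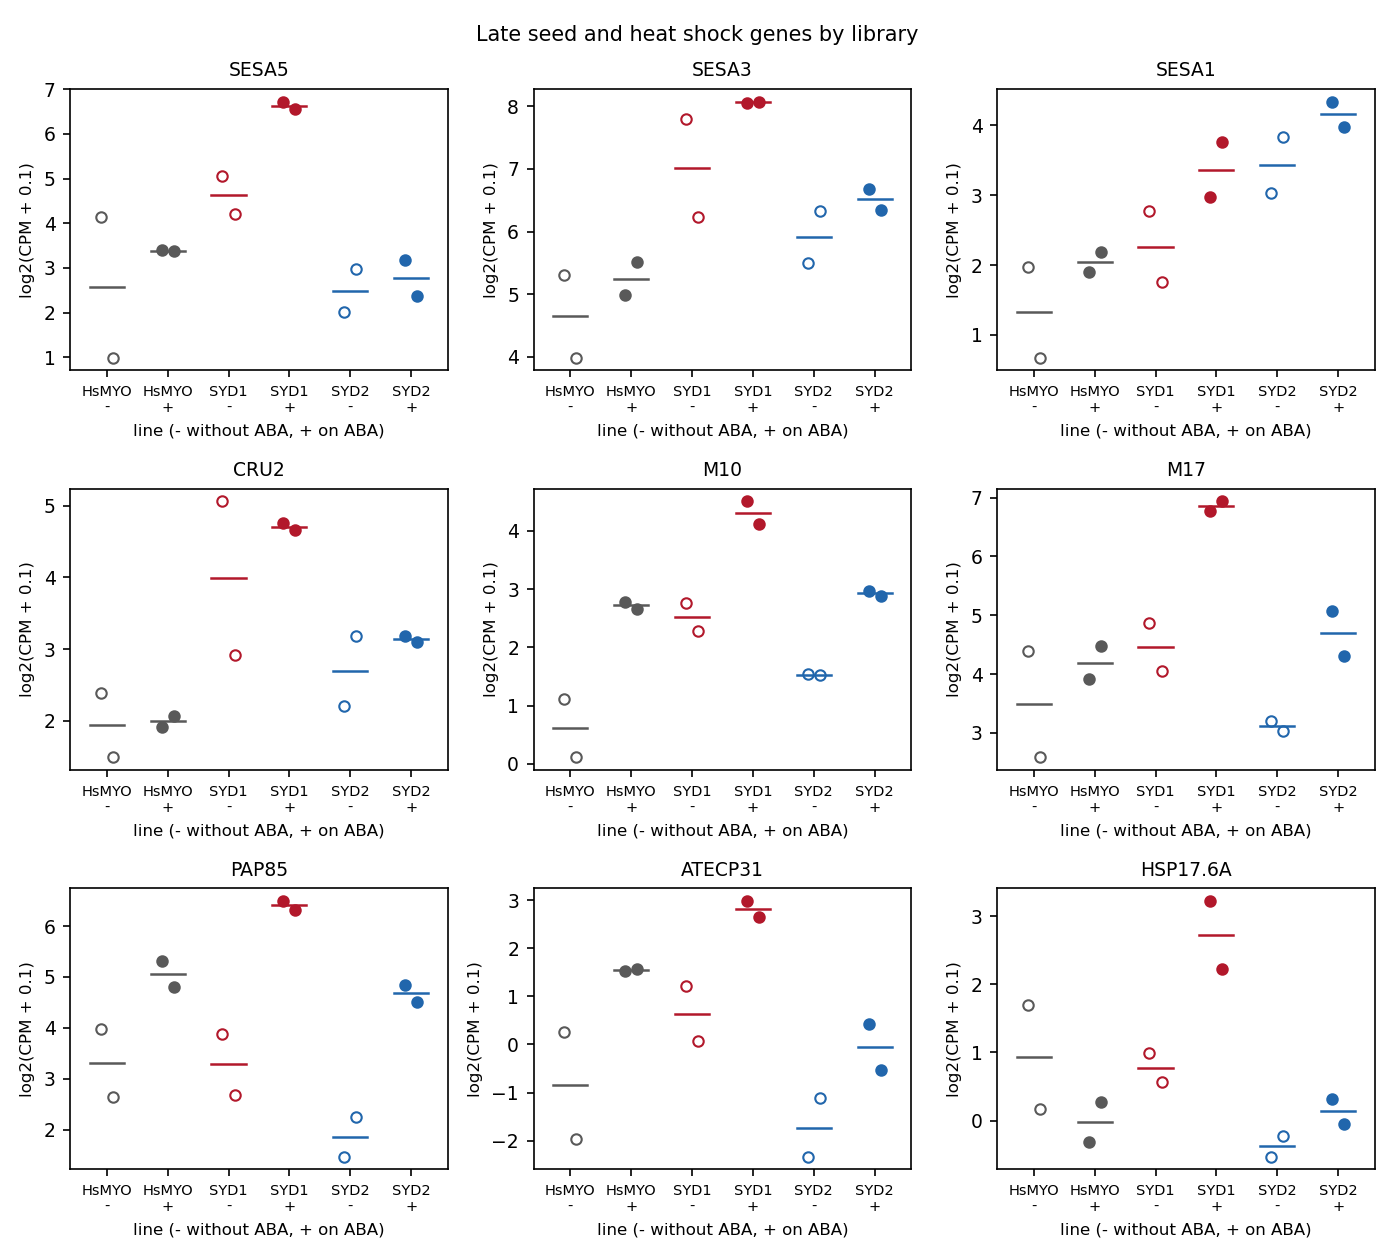
Level of 8 late seed genes and the small heat shock gene HSP17.6A in every library, as log2 of CPM plus 0.1, without ABA (open circles) and on ABA (filled circles); bars are means of 2 replicates. SYD1 on ABA has the highest group mean for every gene except SESA1, which is highest in SYD2 on ABA.

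Most photosynthesis genes had line differences of opposite sign in the 2 treatments, a change that edgeR called for no gene. Of 27 tested genes of photosynthesis and chlorophyll synthesis, 26 were on the SYD1 side of 0 without ABA (median 0.40, range -0.02 to 1.34) and 23 were on the SYD2 side on ABA (median -0.21, range -2.17 to 0.36). Over all genes tested the medians were 0.00 in both treatments. The summed level of the list was 7754 to 8173 CPM in SYD1 and 6277 to 7566 CPM in SYD2 without ABA, and 3190 to 3271 CPM against 3352 to 3992 CPM on ABA, so the lines did not overlap in either treatment. HsMYO lay below both lines, at 5297 to 5638 CPM without ABA and 2691 to 3030 CPM on ABA. The change of the line difference with ABA was negative in all 27 genes (median -0.49), beside 49.3% of all genes tested. For no gene of the 27 was this change called, and the smallest adjusted p was 0.272. Genes of this list rise and fall together, so 27 genes are not 27 separate observations.

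LHCA1 and LHCB3 are examples. LHCA1, an antenna protein of photosystem I, stood at 71.2 and 70.1 CPM in SYD1 and 62.5 and 44.9 CPM in SYD2 without ABA, and at 10.8 and 10.3 CPM against 16.99 and 22.7 CPM on ABA. LHCB3, an antenna protein of photosystem II, stood at 68.7 and 69.7 CPM against 51.9 and 35.4 CPM without ABA, and at 7.31 and 8.18 CPM against 10.7 and 14.8 CPM on ABA. SYD1 was the higher line without ABA and the lower line on ABA for both, with no overlap. The replicates of SYD2 differed from each other by more than those of SYD1. Within a treatment, 5 of the 27 genes were called as higher in SYD1 without ABA, GLK2, PORA, CAB2 (LHCB1.1), LHCB2.1 and LHCB3 (log2 0.37, 1.12, 1.34, 1.1 and 0.68). On ABA, LHCA1 was called as lower in SYD1 (log2 -0.92, adjusted p = 0.0137) and GLK2 as higher (log2 0.36, adjusted p = 0.0265), so GLK2 did not cross.

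Across all genes the difference between the ABA responses of the lines was called for none by edgeR, where 841 genes (4.29%) had an unadjusted p under 0.05. DESeq2, run on the same contrast, called 6 genes. These were LHCA1, LHCB3, PSAD-2, PSAO and PSBQ-2, all of the photosystems, and HRGP1, for a hydroxyproline-rich cell wall glycoprotein. Each was lower on ABA relative to without ABA in SYD1 than in SYD2, by 1.18 (log2 -1.18, PSAD-2) to 3.11 (log2 -3.11, HRGP1), and edgeR gave them adjusted p-values of 0.272 to 1. The list genes GLK2 and PORA were called over both treatments. PORA, for a light-dependent enzyme of chlorophyll synthesis, stood at 36.0 and 24.5 CPM in SYD1 and 16.9 and 11.3 CPM in SYD2 without ABA. On ABA it stood at 0.31 and 0.64 CPM against 0.26 and 0.87 CPM (log2 -0.21, adjusted p = 0.978). The value over both treatments (log2 1.03 ± 0.21, adjusted p = 0.0154) thus rests on the libraries without ABA. Its call was lost without replicate 1 of SYD1 without ABA, in the 12-library fit (adjusted p = 0.656) and with DESeq2 (adjusted p = 0.821). GLK2, a transcription factor that activates chloroplast genes, was higher in SYD1 in each treatment, at 129 and 134 CPM against 106 and 97.0 CPM without ABA and 75.5 and 73.3 CPM against 57.3 and 58.4 CPM on ABA (log2 0.37 ± 0.04, adjusted p = 2.11e-04). HsMYO stood below both lines, at 29.2 to 50.7 CPM.

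**Figure D4:**
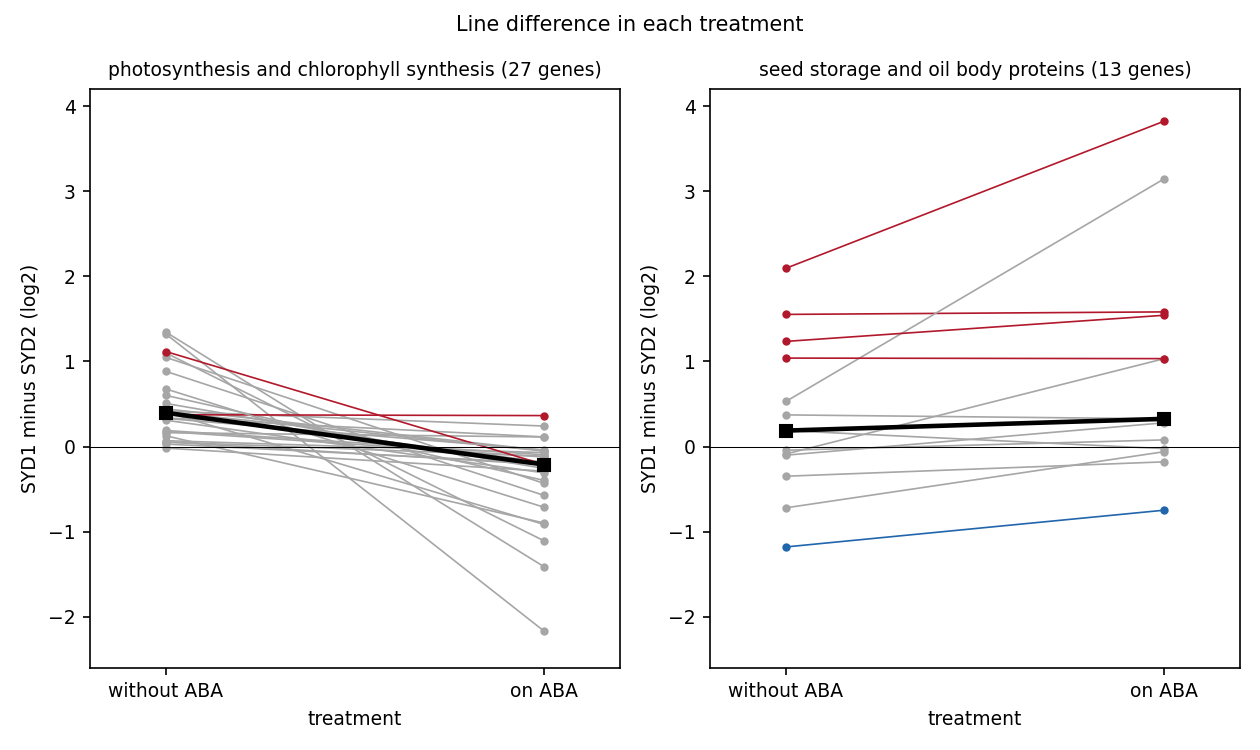
Difference between SYD1 and SYD2 in each treatment, in log2, for the tested genes of 2 lists; each thin line is 1 gene, red where called over both treatments as higher in SYD1 and blue where higher in SYD2, and the black squares are medians. The photosynthesis median passes from 0.40 without ABA to -0.21 on ABA, whereas the seed storage median stays positive at 0.19 and 0.33.

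PRP3, LRX1 and EXPA7, genes of root hair growth, were higher in SYD1 over both treatments, and PRP3 and LRX1 were also called without ABA alone. PRP3, a proline-rich cell wall protein of root hairs, stood at 41.4 and 24.1 CPM in SYD1, 17.3 and 9.93 CPM in SYD2 and 0.66 and 1.46 CPM in HsMYO without ABA (log2 over both treatments 1.28 ± 0.23, adjusted p = 6.55e-03). LRX1, a leucine-rich extensin, stood at 27.3 and 19.2 CPM, 12.1 and 6.44 CPM, and 2.47 and 2.6 CPM (log2 1.33 ± 0.22, adjusted p = 3.45e-03). Expansin gene EXPA7 stood at 7.80 and 5.13 CPM, 3.46 and 2.27 CPM, and 0.53 and 0.51 CPM (log2 1.2 ± 0.26, adjusted p = 0.0307). For all 3 genes SYD1 was highest, SYD2 came next and HsMYO was lowest, with no overlap between SYD1 and SYD2. The calls of PRP3 and LRX1 were lost without replicate 1 of SYD1 without ABA (adjusted p = 0.0944 and 0.0543), and that of EXPA7 without that library or replicate 2 of SYD2 without ABA (highest adjusted p = 0.246). PRP3 and EXPA7 had no more than 0.14 CPM in any library on ABA.

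The 3 genes were those called among 8 tested root hair and epidermis markers, or 37.5% beside 3.18% of all genes. None of the 3 kept its call with 1 mean per group in the 12-library fit (adjusted p = 0.767 for PRP3, 0.427 for LRX1 and 1 for EXPA7). That fit weighs both treatments alike, and EXPA7, at 0 CPM on ABA in both lines, was at 0.60 there. DESeq2 did not call PRP3 or LRX1 (adjusted p = 0.28 and 0.154). Of the other markers, EXPA18 and COBL9, genes of growing hairs, were at 1.13 and 0.70, and RHD6, RSL4 and GL2, transcription factors of hair or non-hair fate, at 0.11, 0.32 and -0.11, none called. The summed level of the 8 markers was 98.1 to 134 CPM in SYD1, 61.4 to 82.4 CPM in SYD2 and 38.1 to 42.6 CPM in HsMYO without ABA. On ABA it was 48.0 to 49.7 CPM, 45.6 to 48.1 CPM and 37.5 to 38.2 CPM, so that SYD1 and SYD2 overlapped, and most of it came from RHD6 and GL2. Root tip markers, at 105 to 107 CPM in SYD1, 96.5 to 98.3 CPM in SYD2 and 108 to 114 CPM in HsMYO without ABA, had none of 4 called. Whether the number of root hair cells differed between the lines was not tested. The extensin pseudogene EXT11 (61.5 CPM in SYD1, 21.6 in SYD2 and 5.47 in HsMYO without ABA, adjusted p = 0.0108) followed the same order, and its call too was lost without replicate 1 of SYD1 without ABA (adjusted p = 0.132) and in the 12-library fit and DESeq2 (adjusted p = 0.816 and 0.285).

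Indole glucosinolate synthesis genes were higher in SYD2. CYP79B2 and CYP79B3 turn tryptophan into its aldoxime and CYP83B1 carries the product onward to glucosinolates. CYP79B3 stood at 17.9 and 19.2 CPM in SYD1 and 27.0 and 22.1 CPM in SYD2 without ABA, and at 9.0 and 8.32 CPM against a mean of 18.6 ± 1.94 CPM (SD, n = 2) on ABA (log2 -0.71 ± 0.12, adjusted p = 4.87e-03). CYP79B2 was at 60.7 and 60.0 CPM against 93.9 and 92.5 CPM on ABA (log2 over both treatments -0.42 ± 0.08, adjusted p = 8.08e-03). CYP83B1 was at 263 and 242 CPM against 332 and 307 CPM on ABA (log2 -0.27 ± 0.05, adjusted p = 8.84e-03). On ABA SYD2 was above SYD1 and HsMYO for all 3, with no overlap. Without ABA the lines differed by -0.20 for CYP79B2 and -0.19 for CYP83B1 (log2, adjusted p = 0.724 and 0.661). There CYP83B1 was highest in HsMYO, at 299 CPM against 279 in SYD2 and 244 in SYD1 (group means). These were the 3 of 6 tested genes of the list that were called (50% beside 3.18% of all genes), and TGG1 and TGG2, for the myrosinases that break glucosinolates down, were at 0.07 and 0.25. The 12-library fit with 1 mean per group did not call CYP79B2 or CYP83B1 (adjusted p = 0.0786 and 0.164). ESM1, which shifts glucosinolate breakdown towards isothiocyanates, was higher in SYD1, at a mean of 2.62 CPM against 1.25 without ABA and 5.77 against 1.88 on ABA (log2 1.39 ± 0.18, adjusted p = 6.06e-04).

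CCA1 and LHY, morning genes of the circadian clock, were higher in SYD1, but the clock list as a whole was not. Of its 12 tested members, 5 were above 0, with a median of -0.07. The share called was 25%, beside 3.18% of all genes. CCA1 stood at 23.61 and 25.3 CPM in SYD1 and 15.6 and 13.9 CPM in SYD2 without ABA, and at 12.4 and 12.6 CPM against 8.34 and 8.08 CPM on ABA (log2 0.68 ± 0.07, adjusted p = 8.62e-05). LHY, its partner, stood at 49.6 and 51.1 CPM against 35.3 and 36.8 CPM without ABA, and at 27.1 and 32.5 CPM against 21.3 and 25.2 CPM on ABA (log2 0.42 ± 0.07, adjusted p = 2.63e-03). The lines did not overlap for either gene in either treatment. For CCA1, SYD1 was not called against HsMYO (log2 0.25, adjusted p = 0.0756) and SYD2 was below it (log2 -0.42, adjusted p = 7.10e-03), whereas LHY was below HsMYO in both lines (log2 -0.52 in SYD1 and -0.94 in SYD2). PCL1 (LUX), an evening gene, was the third called of 12, at -0.18 ± 0.05 (adjusted p = 0.0499), a call that 7 of the 8 single-library omissions lost, all but that of replicate 2 of SYD1 on ABA. TOC1 and GI were at -0.08 and -0.10, not called. The hour of harvest is not given in the sources used here, and whether it differed between libraries was not tested.

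Hormone-linked genes gave a mixed picture. ARF10, an auxin response factor that microRNA160 targets, stood at 45.0 and 47.1 CPM in SYD1 and 29.1 and 33.2 CPM in SYD2 without ABA, and at 49.1 and 49.2 CPM against 31.2 and 32.0 CPM on ABA (log2 0.59 ± 0.05, adjusted p = 3.27e-05). HsMYO stood with SYD2, at 26.3 to 33.3 CPM. RD22, a dehydration-responsive gene, was higher in SYD1, with means of 35.2 CPM against 25.0 without ABA and 17.3 against 12.2 on ABA (log2 0.49 ± 0.06, adjusted p = 2.76e-04). Among 12 tested ABA and dehydration effectors, 2 were higher in SYD1, RD22 and LTI30 (log2 0.55), and 1 in SYD2, COR47 (log2 -0.20). The share called was 25%, beside 3.18% of all genes, and the list median was 0.04. The calls of LTI30 and COR47 stood in 3 of the 8 omissions each, those of replicate 2 of either line without ABA for both genes, of replicate 1 of SYD1 on ABA for LTI30 and of replicate 1 of SYD2 without ABA for COR47. Among the rest, RD29A, RD29B and RAB18 were at -0.02, -0.30 and 0.58, not called. None of 20 tested ABA receptors, kinases and phosphatases was called over both treatments, at -0.23 to 0.21. Without ABA the phosphatase gene AHG1 was called as higher in SYD2, at 2.49 and 2.01 CPM in SYD1 against 5.29 and 4.28 CPM (log2 -1.07, adjusted p = 0.0379). ABI4, a transcription factor of ABA signalling, was the called gene of 11 ABA and embryo factors (log2 -0.18 ± 0.04, adjusted p = 0.0267), and kept its call without replicate 1 of SYD2 on ABA and without replicate 2 of SYD2 without ABA, but in no other omission. GA20OX3, for an enzyme of gibberellin synthesis, was the called gene of 17 gibberellin genes (log2 0.64 ± 0.13, adjusted p = 0.0149). Its call was lost without replicate 1 of SYD1 on ABA or either SYD2 library on ABA, at 0.50 to 0.81.

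Flavonoid genes UGT78D2, a glucosyltransferase, and FLS1, flavonol synthase, were higher in SYD1 (log2 0.43 ± 0.07 and 0.35 ± 0.08, adjusted p = 4.42e-03 and 0.0327), 2 of 8 tested (25% beside 3.18% of all genes). Without ABA these and TT5, chalcone isomerase (log2 0.55, adjusted p = 0.0159), were called, with 6 of 8 above 0. On ABA none was called, and 4 were above 0 and 4 below. The call of FLS1 was lost without either SYD1 library without ABA or replicate 1 of SYD2 in either treatment, at 0.27 to 0.43. Over both treatments, 9497 of all 18959 genes tested were above 0. Of 10 low-oxygen genes, 9 were below 0, with a median of -0.27, and 2 were called (20% beside 3.18% of all genes). Called among them were LBD41, a transcription factor (log2 -0.41 ± 0.09, adjusted p = 0.0192), and AT5G39890 (PCO2), a plant cysteine oxidase that senses oxygen (log2 -0.24 ± 0.05, adjusted p = 0.0155). Both calls were lost without replicate 1 of either line on ABA, that of LBD41 also without replicate 2 of SYD1 without ABA and that of AT5G39890 also without replicate 2 of SYD1 on ABA, at -0.51 to -0.31 and -0.29 to -0.21. Of 16 genes of oil reserve use, 15 were below 0 by little, with a median of -0.09, and 2 were called (12.5% beside 3.18% of all genes). Among them PCK1 was called (log2 -0.19 ± 0.03, adjusted p = 6.55e-03), at 6415 CPM in SYD1 and 7347 CPM in SYD2 without ABA and 5966 against 6783 CPM on ABA. The other called gene, ACX3, for an acyl-CoA oxidase of beta-oxidation (log2 -0.17 ± 0.04), kept its call in 2 of the 8 omissions, those of the 2 SYD2 libraries without ABA. Cell cycle and DNA replication genes had a median of -0.10, with 19 of 23 below 0 and 3 called (13% beside 3.18% of all genes, of which 9497 of 18959 were above 0). PRL and MCM5, subunits of the MCM helicase that opens replication origins, were lower in SYD1 (log2 -0.21 and -0.16) and the cyclin gene CYCD3;1 was higher (log2 0.28). PRL lost its call without replicate 2 of SYD1 in either treatment or replicate 1 of SYD2 on ABA, MCM5 in all omissions but that of replicate 2 of SYD2 without ABA, and CYCD3;1 in all but those of replicate 1 of SYD1 on ABA and replicate 2 of SYD2 without ABA.

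**Figure D5:**
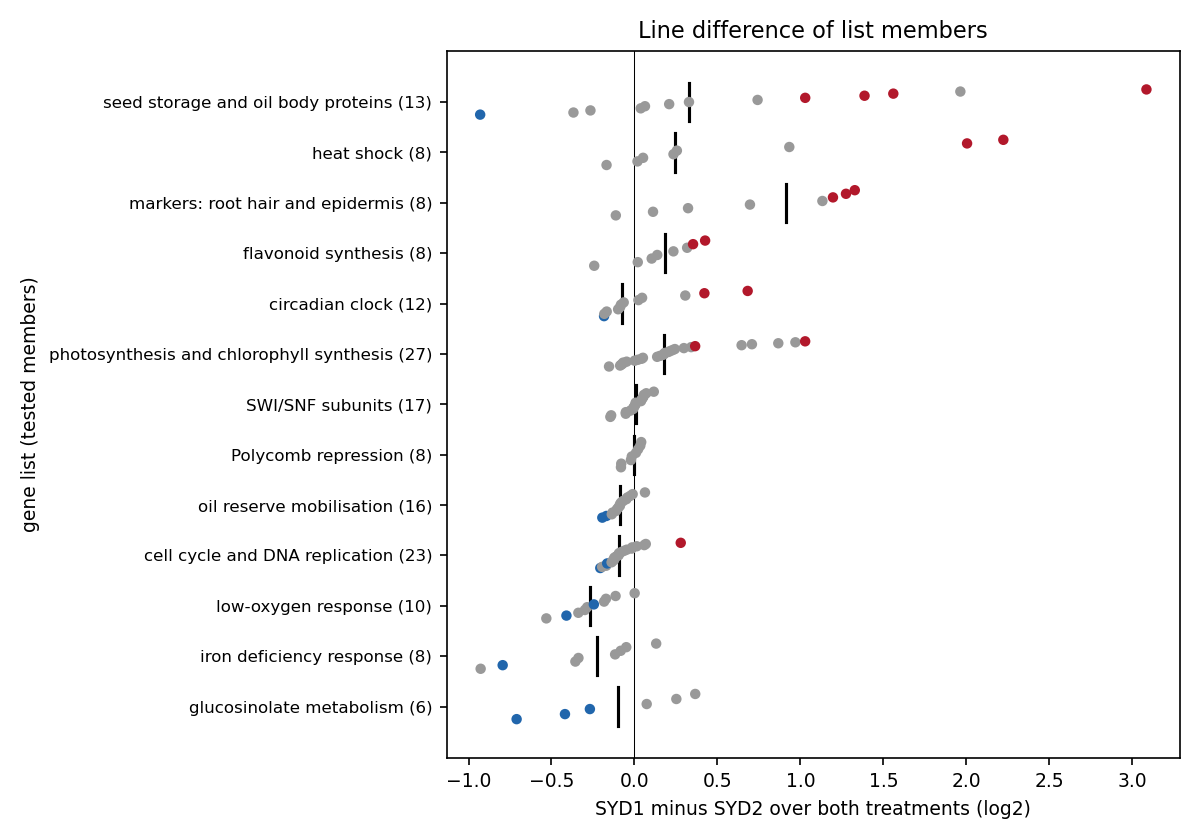
Difference between SYD1 and SYD2 over both treatments, in log2, for the tested members of 13 gene lists, with the number tested in brackets. Red points were called as higher in SYD1, blue points as higher in SYD2 and grey points were not called; black bars are list medians, which lie between 0.92 for root hair markers and -0.27 for low-oxygen genes.

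Other lists held few calls or none, where 3.18% of all genes were called. Among 13 cell wall loosening genes the expansin gene EXPA9 (log2 0.28, adjusted p = 1.71e-03) and XTH9 (log2 0.22, adjusted p = 0.0224) were higher in SYD1, and XTH9 lost its call without either SYD1 library on ABA, replicate 1 of SYD1 without ABA or replicate 2 of SYD2 on ABA. Of 11 defence genes, EDS16, for the isochorismate synthase of salicylic acid synthesis, was called (log2 0.26, adjusted p = 0.0309), but not without either SYD1 library without ABA or replicate 1 of SYD2 in either treatment. Of 8 iron deficiency genes, bHLH39, a transcription factor of iron uptake, was higher in SYD2 (log2 -0.79, adjusted p = 0.0343), a call that stood without replicate 1 of SYD1 on ABA or replicate 1 of SYD2 without ABA and in no other omission. NAS4, for nicotianamine synthase, was called as higher in SYD2 on ABA (log2 -1.26, adjusted p = 0.0298). Among 12 DNA methylation genes, 8 Polycomb genes, 7 flowering genes, 6 shoot meristem markers and 3 endosperm markers none was called, with medians of 0.03, 0.00, 0.02, 0.01 and -0.15. Of 21 small RNA pathway genes, RDR6, which makes double-stranded RNA for silencing, was called (log2 -0.19 ± 0.05, adjusted p = 0.0442), and it kept that call in 1 of the 8 omissions, that of replicate 1 of SYD2 without ABA. On ABA alone the Argonaute gene AGO9 was called as higher in SYD1, at 9.10 CPM in each replicate against 5.25 and 3.79 CPM in SYD2 (log2 1.01, adjusted p = 6.00e-03). MUM2, a galactosidase of seed coat mucilage, was 1 of 2 tested seed coat markers and was lower in SYD1 on ABA, at 17 CPM against 25.7 in SYD2 and 30.2 in HsMYO (log2 over both treatments -0.36 ± 0.08, adjusted p = 0.0270). Its call was lost without any of the 4 libraries on ABA or replicate 1 of SYD1 without ABA, at -0.44 to -0.31. By annotation, 9 of 149 tested pseudogenes (6.04%) and 7 of 157 long noncoding RNAs (4.46%) were called, beside 580 of 18361 protein-coding genes (3.16%). By chromosome the share ran from 2.7% on chromosome 4 to 3.52% on chromosome 2, so the called genes were not gathered on 1 chromosome.

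Runs of at least 3 genes called in the same direction among 5 successive tested genes were found at 4 places. On chromosome 5, 23300321 to 23308680, 4 genes for xyloglucan endotransglucosylases, which remodel cell walls, were all higher in SYD1. Of these XTH25 was at 2.50 ± 0.31 (adjusted p = 5.12e-04) and TCH4 at 0.37 ± 0.06 (adjusted p = 5.18e-03). XTH12 and XTH13 were at 1.45 and 1.1, and both of these calls were lost without replicate 1 of either line without ABA, that of XTH13 in all omissions but those of replicate 2 of SYD1 without ABA and of SYD2 on ABA. XTH12 and XTH13 had 0 CPM on ABA in each line, as had AT4G08400 and AT4G08410, for proline-rich extensin-like proteins, which lie with SAPX, a chloroplast ascorbate peroxidase gene, on chromosome 4 at 5314871 to 5341209. The calls of the 2 extensin-like genes (log2 1.64 and 1.56) were lost without replicate 1 of SYD1 without ABA, and that of AT4G08400 also without replicate 2 of SYD2 without ABA. AT4G01870, AT4G01883 and AT4G01895 formed the third run (chromosome 4, 808376 to 820379) at 0.61, 0.33 and 1.42. AT4G01870 alone of these kept its call in every omission. AT4G01895 lost it without replicate 2 of SYD2 on ABA, and AT4G01883 in all but that of replicate 1 of SYD2 without ABA. The single run higher in SYD2 held MSL9, ACL5 and ASP2 (chromosome 5, 6585355 to 6601971). ACL5, for thermospermine synthase, stood at 7.71 CPM in SYD1, 11.8 in SYD2 and 22.6 in HsMYO without ABA (log2 -0.59 ± 0.08, adjusted p = 1.03e-03). MSL9 and ACL5 overlap on opposite strands, and the sources used here do not give the strand setting of the counting. The call of ASP2 was kept in the omission of replicate 2 of SYD2 without ABA alone.

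Further genes higher in SYD1 followed no list. GRP3S, a short glycine-rich wall protein, stood at 17.2 and 11.2 CPM in SYD1 and 4.64 and 3.85 CPM in SYD2 without ABA, and at 9.67 and 9.15 CPM against 1.28 and 1.00 CPM on ABA. HsMYO was like SYD2, at 3.39 to 3.75 CPM without ABA and 0.85 to 1.04 CPM on ABA (log2 between the lines 2.19 ± 0.21, adjusted p = 5.98e-05). AT5G39580, for a peroxidase, was at 148 and 111 CPM without ABA and 145 and 101 CPM on ABA in SYD1 and SYD2, both above HsMYO at 68.2 and 75.4 CPM (group means). AT4G11310, a papain-type protease gene, PDF2.1, for a defensin, and ChlAKR, for a chloroplast aldo-keto reductase, were higher in SYD1 by 1.32, 1.31 and 1.3 in log2, with adjusted p-values of 5.77e-04, 8.21e-04 and 2.38e-03. HsMYO was below both lines for AT4G11310 (3.1 CPM against 12.9 and 6.06 without ABA), and SYD2 was not called against HsMYO for PDF2.1 (log2 -0.10, adjusted p = 0.782).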

How the data were processed

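The deposited table held raw counts per gene as the authors made them, 1 column per library. The submitters' processing notes name Trimmomatic 0.39, STAR 2.7.10a and the TAIR10 build. The counting program, its strand setting, its handling of reads with several matches and the annotation are details not given in the sources used here, which leaves counts of near copies and antisense pairs uncertain. The libraries were 100 bp read pairs from a stranded mRNA kit, per the labels. Of 36795 entries, 36632 matched a locus tag of TAIR10.1 and 10729 held 0 counts throughout.

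The analysis used edgeR 4.0.16 in R 4.3.3. filterByExpr (minimum count 10) kept 18959 genes in the 8 SYD line libraries, to which a quasi-likelihood model with terms for treatment and line was fitted (TMM scaling, 5 residual degrees of freedom). Single-treatment, interaction and HsMYO contrasts came from a fit of 1 mean per group to all 12 libraries (19612 genes, 6 residual degrees of freedom). p-values are 2-sided and adjusted by Benjamini-Hochberg over all genes tested, and a gene was called under 0.05. CPM use TMM factors of all 12 libraries. DESeq2 1.42.0 was an alternative. The fits were also run on simulated data, whose results are not reported here. The floor was 3 counts and intervals are exact Clopper-Pearson at 95%; duplicates are not marked in a count table. p-values measure the spread between the deposited replicates.

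Members and lists (27 lists, 364 entries, matched by locus) were chosen with earlier results of these data known. Named genes are the 12 largest and the 6 of smallest p in each direction among called genes that did not overlap in either treatment and averaged at least 2 CPM, the SWI/SNF genes, called list members and runs of at least 3 called genes among 5. List members that were not called and the genes in the paragraphs on ABA responses and on opposite departures were named after their values were seen. An upstream sequence of a further called seed gene is not reported here.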

Additional observations from a re-analysis of the deposited data

Results flagged for a closer look

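In 9 of the 602 genes, SYD1 and SYD2 departed from HsMYO in opposite directions, each past the threshold, and the difference between the lines was itself tested. The comparisons share the HsMYO libraries. Departures are means over both treatments, and some held in 1 treatment: without ABA the SYD1 and HsMYO means were 0.81 and 1.14 CPM for XTH25, 10.5 and 10.9 CPM for PAP85 and 30.04 and 29.98 CPM for ATPMEPCRB. PAP85, a seed cupin, was above HsMYO in SYD1 (log2 0.64) and below it in SYD2 (log2 -0.95), 1.65 between the lines. ATECP31, a seed maturation protein, was at 1.34 and -1.44, 2.84 between the lines. XTH25, a wall-remodelling enzyme, was at 0.77 and -2.01, 2.50 between the lines. The cytochrome P450 gene CYP81D11 was at 0.68 and -0.28, with 0.91 between the lines. ARPN was at 0.26 and -0.31 (0.58 between the lines) and ATPMEPCRB, for a pectin methylesterase, at 0.29 and -0.31 (0.59 between the lines). The other 3 went the opposite way, lower than HsMYO in SYD1 and higher in SYD2. AT5G39110, germin-like, was at -1.93 and 0.54, with -2.49 between the lines. CYP71B19 was at -0.23 and 0.41 (-0.64 between the lines) and AGL87, a MADS-box gene, at -0.57 and 0.24 (-0.82 between the lines).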

How the results depend on the processing

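The count of 602 genes between the lines was 581 with RLE size factors, 563 with 1 mean per group in the 8 libraries, 488 with DESeq2 (440 shared) and 405 with 1 mean per group in 12 libraries (364 shared). Without the low-count filter the counts were 1371 over both treatments, 616 without ABA, 471 on ABA and 110 for the difference between ABA responses, for which DESeq2 gave 6. With only the 8 SYD libraries, 230 genes were called without ABA. Leaving out 1 library gave 278 to 772 over both treatments, 13 to 173 without ABA, 36 to 99 on ABA and 0 to 13 for the ABA responses. It gave 6076 to 7724 for SYD1 and 6003 to 7565 for SYD2 against HsMYO, and 0.016 to 0.11 in log2 for SYD transcript. The sign turned in such omissions for 6 SWI/SNF genes that were not called: BRM (-0.041 to 0.030), CHB3 (-0.015 to 0.016), ARP4 (-0.016 to 0.040), ARP7 (-0.042 to 0.041), AT1G76380 (-0.019 to 0.034) and BSH (-0.11 to 0.037). The cause of these changes was not tested. Of 95 named genes, DESeq2 moved 16 below the threshold, the 12-library fit with 1 mean per group 28, its 8-library form 16 and RLE factors 3 (ASP2, MCM5 and PCL1), and no sign turned in these. Both DESeq2 and the 12-library fit ended the calls of AT3G21380, AT4G01883, AT4G08400, AT4G08410, CRU3, EXT11, LRX1, MCM5, PCL1, PORA, PRP3 and RDR6. DESeq2 alone of these 2 ended those of CRU2, GA20OX3, LBD41 and SESA1, and the 12-library fit alone those of ABI4, ACX3, ASP2, COR47, CYCD3;1, CYP79B2, CYP83B1, EXPA7, LTI30, PCK1, PRL, TCH4, XTH12, XTH13, XTH9 and bHLH39. The 12-library fit weighs both treatments alike. EXPA7, XTH12 and XTH13, at 0 CPM on ABA in both lines, were at 0.60, 0.73 and 0.55 in it.

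The labels do not say whether same-numbered libraries of different groups belong together. Residual correlations of same-numbered libraries ran from -0.034 to 0.15 (median 0.067), which is too weak to show such pairing and cannot exclude it. With the replicate number as a block, 789 genes were called over both treatments (599 of the 602) and 308 without ABA. With 2 libraries per group and 3 counts worth 0.101 to 0.162 CPM, differences of genes near that level were not detectable.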
